A study of Mus musculus with 6 samples.

Results

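The genes described here are 10 angiogenic factor genes, chosen by symbol from the 20295 genes of the count table: the vascular endothelial growth factor (VEGF) family ligands Vegfa, Vegfb, Vegfc, Figf and Pgf, the angiopoietins Angpt1 and Angpt2, the angiopoietin-like genes Angptl2 and Angptl4, and the thrombospondin gene Thbs1. All 10 were found and all 10 passed the filter on low counts, which kept 11732 genes. They were measured by RNA sequencing in adipocytes differentiated in culture from stromal-vascular cells, the mixed cells that collagenase frees from fat, of brown fat (BAT, pooled from interscapular, cervical and axillary depots), epididymal white fat (eWAT) and inguinal white fat (iWAT). Each depot had 2 libraries. The donors of all cells were male NMRI mice of 4 to 5 weeks. All cultures received insulin at 30 nM, newborn calf serum at 10% and rosiglitazone at 1 µM, a drug that activates the adipocyte regulator PPARγ, so every depot was measured under this drug. Cultures were harvested 8 days after plating (the table's sample names carry day 7) if over 50% of the cells had differentiated. Nothing in the labels says whether a depot's 2 libraries are separate animals or cultures, so p-values measure only how far these samples spread, and that spread may be technical.

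Blood vessel growth in fat is steered by secreted proteins that adipocytes and stromal cells make and that act on receptors of endothelial cells. VEGF-A is the main growth signal for blood vessels, VEGF-C and VEGF-D act largely on lymphatic vessels, and VEGF-B and placental growth factor bind the receptor Flt1. Angiopoietin 1 activates the endothelial receptor Tek and steadies vessels, while angiopoietin 2 can oppose it. Thrombospondin 1 inhibits vessel growth. Angiopoietin-like proteins resemble angiopoietins but do not act through Tek. Angptl4 is best known as an inhibitor of lipoprotein lipase and as a PPAR target, and Angptl2 as a secreted factor of adipose inflammation. Brown fat is densely supplied with vessels, and Vegfa is induced by low oxygen and by adrenergic stimulation there.

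The 2 members that passed the test in a depot contrast, Vegfa and Figf (the gene for VEGF-D, named Vegfd in RefSeq), are shown by the 250 bases before their annotated start, since they changed in opposite directions. The windows come from RefSeq on the build GRCm38.p6, at chr17:46032378-46032627 on the minus strand for Vegfa and chrX:164373272-164373521 on the plus strand for Figf. Capitals mark matches to the motifs searched on both strands: the hypoxia response cores ACGTG and GCGTG, the perfect PPAR direct repeat (DR1) and the GC box GGGCGG.
Vegfa: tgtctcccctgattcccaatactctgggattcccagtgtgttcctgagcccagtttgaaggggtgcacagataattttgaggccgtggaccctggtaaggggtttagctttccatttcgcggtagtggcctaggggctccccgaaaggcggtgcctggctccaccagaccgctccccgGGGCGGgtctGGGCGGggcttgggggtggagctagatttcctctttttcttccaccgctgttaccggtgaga
Figf: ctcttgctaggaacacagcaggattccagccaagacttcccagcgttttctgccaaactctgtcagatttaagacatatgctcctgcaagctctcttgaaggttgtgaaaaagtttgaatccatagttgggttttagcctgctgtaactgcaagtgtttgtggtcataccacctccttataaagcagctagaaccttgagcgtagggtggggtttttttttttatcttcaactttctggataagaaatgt
The Vegfa window held 2 GC boxes and was 59.2% G and C, and the Figf window held no match and was 42.4% G and C. Of 32851 such windows of the same length, 32.7% held a GC box, 38.6% held ACGTG or GCGTG and 0.0335% held the PPAR repeat. A match describes these letters only, and no match says nothing of sites outside the window. Of the 10 genes, 6 had a window in that table. Vegfa had a second one inside the gene, at chr17:46025164-46025413, with 1 match to each hypoxia response core and 1 GC box.

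Total counts per library ran from 2889038 (BAT replicate 2) to 4807449 (BAT replicate 1). Levels are given as CPM, counts scaled to a common library total with trimmed-mean factors, and levels of different genes are compared only as CPM per kb of counted length. Ucp1, the heat-making protein gene of brown fat, ran from 4924 to 9294 CPM in BAT libraries, from 59.6 to 62.9 in those of eWAT and from 995 to 1114 in those of iWAT, and the adipocyte gene Adipoq was at 1401 CPM or more in every library. Markers of other cell types were detected in every depot. The summed level of 16 endothelial markers ran from 91.1 to 287 CPM, that of 18 macrophage markers from 107 to 502 CPM in BAT, from 216 to 724 in iWAT and from 2391 to 5397 in eWAT, and that of 14 preadipocyte and fibroblast markers from 3866 to 5559 CPM in BAT against 18952 to 22274 in the white depots. No marker on these 3 lists was at 0 in all libraries. Lower in BAT than eWAT by the edgeR test described next were 7 of 16 tested macrophage markers and 5 of 13 tested preadipocyte and fibroblast markers. Of the latter, 1 was higher. The shares of all tested genes were 3.75% lower and 2.71% higher. The 7 became 0 without BAT replicate 2 or either eWAT library, 2 without either iWAT library and 6 without BAT replicate 1. The 5 became 1 without BAT replicate 2, 2 without either eWAT library, 3 without either iWAT library and 5 without BAT replicate 1.

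Across the 10 genes, 2 passed in BAT against eWAT (1 higher, 1 lower), against 6.46% of all tested genes (2.71% higher, 3.75% lower). In BAT against iWAT 1 passed (lower), against 1.04% of all genes (0.895% lower), and DESeq2 called 2 (4.35% of all genes). A pass means an adjusted p below 0.05 in the edgeR quasi-likelihood test over all 11732 genes. In iWAT against eWAT 0 of the 10 and 0% of all genes passed by edgeR, and DESeq2 called 0 of the 10 (2.57% of all genes). An unadjusted edgeR p below 0.05 was met by 4, 3 and 3 of the 10 in BAT minus eWAT, BAT minus iWAT and iWAT minus eWAT. Of all 11732 genes, 3039, 1951 and 1096 met it in that order. The median log2 difference of the 10 genes was 0.18 in BAT minus eWAT, -0.17 in BAT minus iWAT and 0.40 in iWAT minus eWAT, beside -0.03, -0.02 and 0.01 for all genes. The libraries of the 2 depots compared did not overlap for 6 of the 10 in BAT against eWAT, 3 with BAT above and 3 with BAT below (55.2% of all genes, 28.5% with BAT below), for 6 in BAT against iWAT, 2 above and 4 below (48.0%, of which 23.9% above and 24.1% below) and for 4 in iWAT against eWAT, 4 above and 0 below (38.0%, of which 19.2% above and 18.8% below). The contrasts share libraries, so their values are given side by side only.

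**Figure D1:**
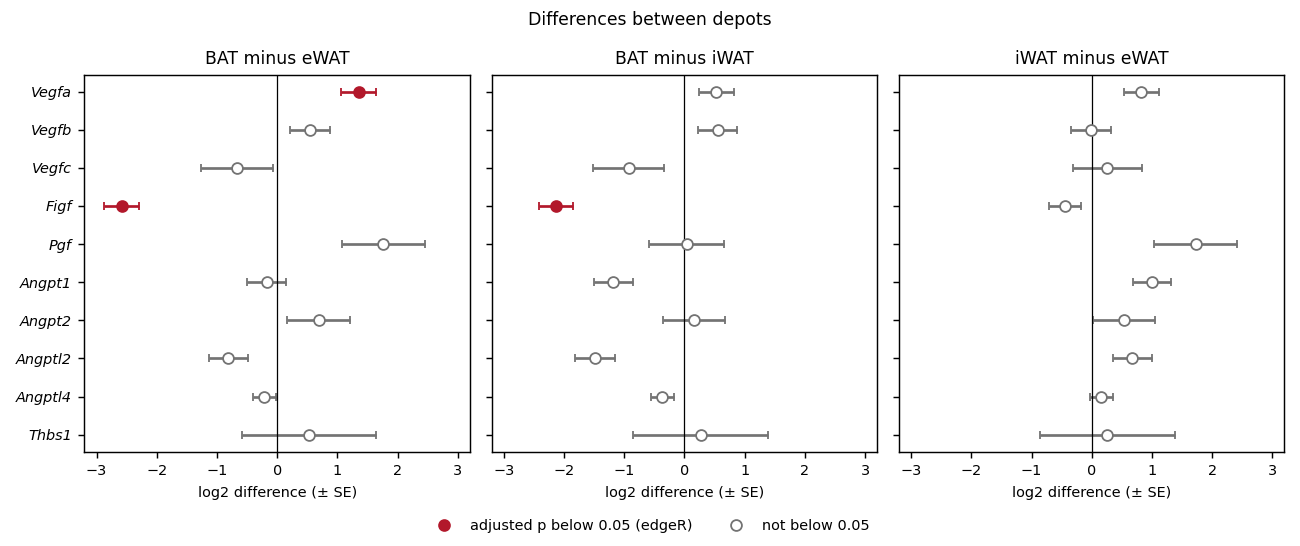
Log2 differences (x axis, bars are ± SE) of the 10 genes (rows) in the 3 depot contrasts, from 1 edgeR fit of all 6 libraries. Filled red points passed the test: Vegfa (1.36) and Figf (-2.58) in BAT minus eWAT and Figf (-2.14) in BAT minus iWAT.

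Among the VEGF ligands, Vegfa was higher and Figf lower in BAT than in eWAT. Vegfa stood at 379 and 580.0 CPM in BAT, at 149.8 and 225 in eWAT libraries and at 319 and 344 in iWAT libraries. Every BAT library was above every iWAT library, and these were above both eWAT libraries. In BAT minus eWAT the log2 difference was 1.36 ± 0.29 (SE; 2.56-fold, edgeR adjusted p = 0.0477). The other contrasts did not pass, with BAT minus iWAT at 0.53 ± 0.29 (adjusted p = 0.407) and 0.83 ± 0.29 between iWAT and eWAT (adjusted p = 0.406). The Vegfa call sat just inside the threshold in the main fit and held in 7 of 14 alternative fits. With library totals in place of trimmed-mean scaling its edgeR adjusted p was 0.0519, and with iWAT left out of the fit 0.0881. DESeq2 gave 0.00102, and edgeR with no low-count filter 0.000765. It was called without BAT replicate 1 but not without BAT replicate 2 (difference 1.02, adjusted p = 0.172), eWAT replicate 1 (1.10, 0.220), eWAT replicate 2 (1.68, 0.0993), iWAT replicate 1 (1.35, 0.0939) or iWAT replicate 2 (1.36, 0.0974). Vegfa was lower in replicate 1 in each depot, and leaving out a library unbalances the replicate numbers between depots. In mm9 the gene (NM_001287057) spans chromosome 17 from 46153942 to 46169326 on the minus strand, as the count table gives it.

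Figf had the largest difference of the 10 genes. It stood at 23.0 and 25.2 CPM in BAT, at 172 and 117 in eWAT libraries and at 125 and 86.7 in iWAT libraries. Both BAT libraries were far below all 4 white fat libraries, and the white depots overlapped. The log2 difference was -2.58 ± 0.29 for BAT minus eWAT (5.99-fold lower, edgeR adjusted p = 0.0158) and -2.14 ± 0.28 for BAT minus iWAT (4.40-fold lower, adjusted p = 0.0333). For iWAT minus eWAT it was -0.45 ± 0.26 (adjusted p = 0.787). Without BAT replicate 2 the first was -2.65 (adjusted p = 0.0853). Against iWAT the difference was -2.07 (0.0823) without BAT replicate 1, -2.19 (0.195) without BAT replicate 2, -1.84 (0.137) without iWAT replicate 1 and -2.38 (0.114) without iWAT replicate 2, and limma voom gave an adjusted p of 0.0505. The summed preadipocyte and fibroblast markers given above were also lower in BAT than in the white depots. Between the white depots their sum was higher in iWAT (22046 and 22274 CPM) than in eWAT (18952 and 19916), but single markers went both ways. Col3a1, the largest in the sum, averaged 15119 CPM in iWAT and 13535 in eWAT. Lum averaged 104 CPM in iWAT and 246 in eWAT. The part of these markers in the result was not tested. In bulk RNA fewer cells of a type and less RNA per cell cannot be told apart. In mm9 Figf (NM_010216) spans chromosome X from 160811479 to 160840579 on the plus strand.

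Pgf, the gene for placental growth factor, was a low gene with large spread. It stood at 17.5 and 6.12 CPM in BAT, at 1.86 and 5.40 in eWAT libraries and at 14.7 and 9.05 in iWAT libraries. Both eWAT libraries were the lowest, with 8 and 19 reads. The counting interval (exact Poisson, 95%, counting error only) ran from 0.805 to 3.67 CPM for eWAT replicate 1 and from 3.25 to 8.44 for eWAT replicate 2. For BAT replicate 2 it ran from 3.50 to 9.94, so these intervals overlapped. Its log2 difference was 1.77 ± 0.69 for BAT minus eWAT (edgeR adjusted p = 0.173) and 1.73 ± 0.69 for iWAT minus eWAT (adjusted p = 0.502), and 0.04 ± 0.62 for BAT minus iWAT (adjusted p = 0.985). With no filter on low counts the first passed (adjusted p = 0.0265). With 1 library left out, the first ran from 0.78 to 2.69 and the second from 1.13 to 2.65.

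Vegfb and Vegfc had few reads and passed in no contrast. Vegfb, whose protein is linked to fatty acid handling of vessels, stood at 14.2 and 17.6 CPM in BAT, at 11.6 and 9.95 in eWAT libraries and at 13.2 and 8.30 in iWAT libraries. The BAT libraries were the 2 highest, but by little: 0.54 ± 0.33 against eWAT (edgeR adjusted p = 0.354) and 0.55 ± 0.33 against iWAT (adjusted p = 0.451). Vegfc, a lymphatic growth factor gene, stood at 12.7 and 4.97 CPM in BAT, at 16.8 and 12.2 in eWAT libraries and at 25.3 and 9.55 in iWAT libraries. Replicate 1 was above replicate 2 in each depot and the depots overlapped. Its differences were -0.67 ± 0.60 for BAT minus eWAT (adjusted p = 0.535) and -0.93 ± 0.59 for BAT minus iWAT (adjusted p = 0.482), and with 1 library left out they ran from -1.54 to -0.20 and from -1.80 to -0.07. Pgf, Vegfb and Vegfc lie in mm9 on chromosome 12 (NM_008827, 86507588 to 86518263), chromosome 19 (NM_011697, 7056961 to 7062141) and chromosome 8 (NM_009506, 55162885 to 55271808).

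**Figure D2:**
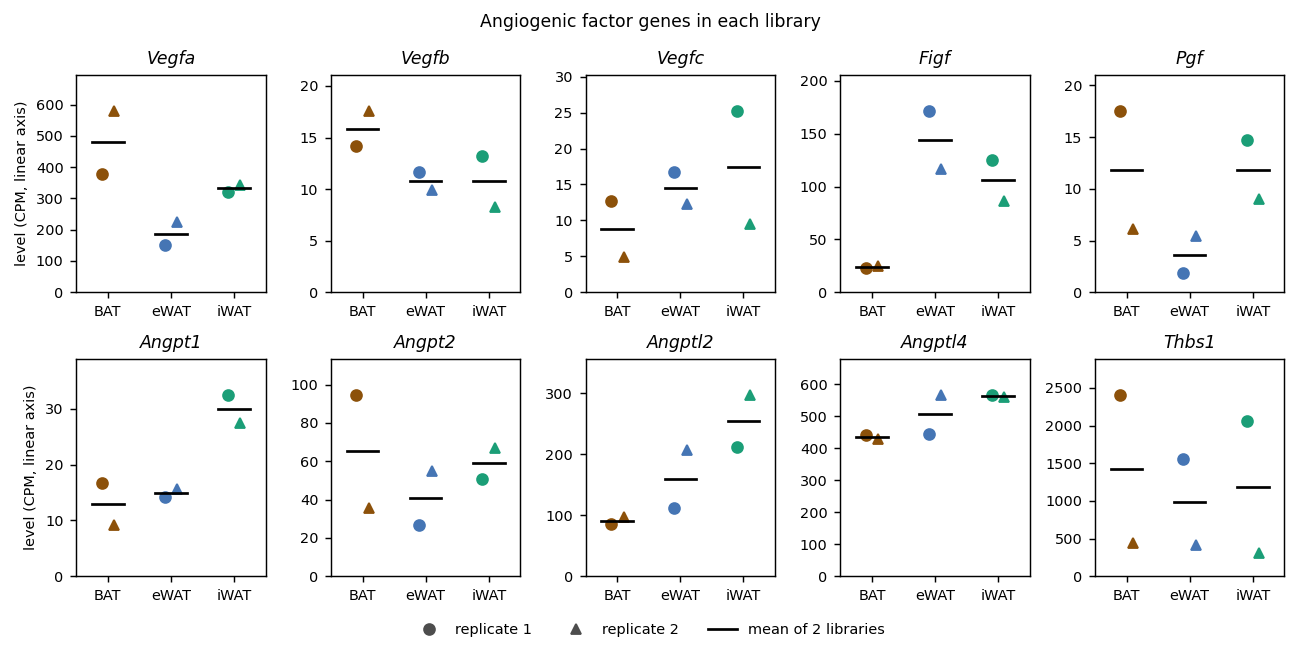
CPM of each gene (a panel each, linear y axis from 0) by depot; circles are replicate 1, triangles replicate 2 and lines the mean of 2 libraries. The BAT libraries of Figf (23.0 and 25.2 CPM) lie below all others, and Thbs1 splits by replicate in every depot.

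Per kb, the makeup of the VEGF ligands differed between the depots. Vegfa made up 72.8% and 83.3% of their summed CPM per kb in the BAT libraries, against 28.1% and 44.8% in eWAT libraries and 48.1% and 61.1% in iWAT libraries. Figf made up 8.15% and 6.68% in the BAT libraries, against 59.4% and 43.0% in eWAT libraries and 34.8% and 28.4% in iWAT libraries. So Vegfa was the leading VEGF ligand in the BAT and iWAT libraries, Figf led in eWAT replicate 1, and the pair were close in eWAT replicate 2. The ratio of Vegfa to Figf per kb was 8.93 and 12.5 in BAT, against 0.473 and 1.04 in eWAT libraries and 1.38 and 2.15 in iWAT libraries. Vegfb, Vegfc and Pgf each held 7.33% or less in every library. These shares restate the Vegfa and Figf differences and were not tested.

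**Figure D3:**
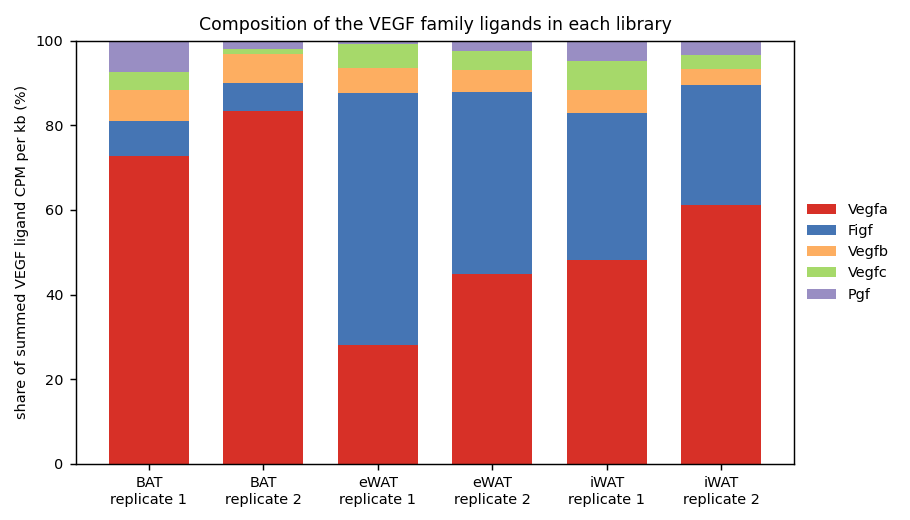
Share of each VEGF ligand in the summed CPM per kb of the 5 ligands (y axis, percent) in each of the 6 libraries (bars). Vegfa fills 72.8% and 83.3% of the BAT bars, and Figf 59.4% and 43.0% of the eWAT bars.

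The receptors for these ligands were expressed but none passed by edgeR. Of the 5 VEGF receptor and coreceptor genes tested, 0 passed in each contrast, 1, 0 and 1 had an unadjusted p below 0.05 in BAT minus eWAT, BAT minus iWAT and iWAT minus eWAT, and DESeq2 called 1 higher in the first. The list's median log2 difference was 0.72, 0.17 and 0.33 in that order. Nrp1, a coreceptor gene made by many cell types, stood at 549.7 and 622 CPM in BAT, at 354 and 358 in eWAT libraries and at 433 and 448 in iWAT libraries. The depots did not overlap, and BAT minus eWAT was 0.72 ± 0.17 (edgeR adjusted p = 0.0598). Kdr, the main VEGF-A receptor of endothelial cells, averaged 25.0 ± 10.4 CPM (SD, n = 2, as below) in BAT, 14.7 ± 4.96 in eWAT and 26.1 ± 2.20 in iWAT. Nrp2, a coreceptor gene of lymphatic vessels, averaged 114 ± 0.839, 144 ± 42.4 and 96.7 ± 5.85 CPM.

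Neither angiopoietin passed in any contrast. Angpt1 stood at 16.7 and 9.18 CPM in BAT, at 14.2 and 15.6 in eWAT libraries and at 32.5 and 27.4 in iWAT libraries. Both iWAT libraries were above the other 4. The log2 difference was 1.00 ± 0.32 for iWAT minus eWAT (edgeR adjusted p = 0.344) and -1.18 ± 0.32 for BAT minus iWAT (adjusted p = 0.160, and 0.0345 with no filter on low counts), while BAT minus eWAT was -0.18 ± 0.33 (adjusted p = 0.780). The last was 0.16 without BAT replicate 2.

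Angpt2 stood at 94.7 and 35.6 CPM in BAT, at 26.8 and 55.2 in eWAT libraries and at 51.0 and 67.1 in iWAT libraries. The depots overlapped, with the highest level in BAT replicate 1 and the lowest in eWAT replicate 1. Its differences were 0.69 ± 0.52 against eWAT (edgeR adjusted p = 0.460) and 0.16 ± 0.51 against iWAT (0.914) for BAT, and 0.53 ± 0.52 between iWAT and eWAT (0.952). Without BAT replicate 1 the first turned to -0.19 and the second to -0.73, which was also below 0 (-0.02) without iWAT replicate 1. Per kb, Angpt2 was above Angpt1 in every library, by 6.87 and 4.69 times in BAT, by 2.28 and 4.27 times in eWAT libraries and by 1.90 and 2.97 times in iWAT libraries. The span of Angpt2 (NM_007426, mm9 chromosome 8, 18690262 to 18741562, minus strand) overlaps that of Mcph1 on the other strand (773 reads in all, against 1329 for Angpt2). Whether their counted bases overlap was not checked. The counting is not stated to use strand, so reads from any shared counted bases could not be told apart. Angpt1 (NM_001286062) lies on mm9 chromosome 15 from 42256212 to 42508523.

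Endothelial markers also varied between libraries. Their summed level was highest in BAT replicate 1 (287 CPM) and lowest in eWAT replicate 1 (91.1), the same libraries as for Angpt2, and was 141 in BAT replicate 2, 190.0 in eWAT replicate 2, and 243 and 262 in iWAT. The part of these cells in the Angpt2 values was not tested. The defining junction gene Cdh5 stood at 39.3 and 18.0 CPM in BAT, at 9.32 and 29.0 in eWAT libraries and at 42.1 and 31.7 in iWAT libraries. With edgeR 0 of 13 tested endothelial markers passed in each contrast (1, 1 and 2 at an unadjusted p below 0.05, 0 by DESeq2). Of the 3 angiopoietin receptor genes 0 passed (0, 1 and 1 at an unadjusted p below 0.05, 0 by DESeq2). Tek, the angiopoietin receptor, averaged 8.30 ± 2.01 CPM in BAT cultures, 10.4 ± 4.18 in those of eWAT and 21.2 ± 4.49 in those of iWAT, with BAT minus iWAT at -1.33 ± 0.38 (adjusted p = 0.179). Tie1, its partner receptor, averaged 7.81 ± 2.40, 5.31 ± 4.55 and 9.13 ± 2.37 CPM, and the phosphatase gene Ptprb 9.51 ± 2.09, 3.83 ± 3.44 and 9.45 ± 0.922 CPM.

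Of the angiopoietin-like genes, Angptl2 stood at 85.2 and 97.1 CPM in BAT, at 112 and 207 in eWAT libraries and at 211 and 297 in iWAT libraries. The 3 depots did not overlap, and BAT was lowest. BAT minus iWAT was -1.48 ± 0.33 (2.79-fold lower), with an edgeR adjusted p of 0.122, while DESeq2 gave 0.00408 and edgeR with no low-count filter 0.000634. BAT minus eWAT was -0.81 ± 0.33 (adjusted p = 0.186, and 0.0466 with no filter) and ran from -1.18 to -0.29 with 1 library left out, and iWAT minus eWAT was 0.67 ± 0.32 (adjusted p = 0.653). Preadipocyte and fibroblast markers were likewise lower in BAT, as given above, and their part in the Angptl2 values was not tested. The gene (NM_011923, mm9 chromosome 2, 33071480 to 33103234, plus strand) lies within Ralgps1, which is on the other strand and had 118 reads in all against 3928 for Angptl2.

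Angptl4 lay at like levels in the 3 depots. It stood at 442 and 428 CPM in BAT, at 444 and 566 in eWAT libraries and at 566 and 558 in iWAT libraries. The largest of its differences was -0.37 ± 0.19 for BAT minus iWAT (edgeR adjusted p = 0.390), with -0.22 ± 0.19 for BAT minus eWAT (adjusted p = 0.532) and 0.15 ± 0.19 for iWAT minus eWAT (adjusted p = 0.978). Both BAT libraries were the lowest, though eWAT replicate 1 was close to them. Per kb it was the highest of the 10 genes on average, at 263 CPM per kb, above 98.2% of tested genes. It spans mm9 chromosome 17 from 33911844 to 33918520 (NM_020581).

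Among its family and enzyme partners, only the angiopoietin-like genes Angptl1 and Gm6484 passed by edgeR, in opposite directions. No gene of the lipase system passed. Among 6 tested other angiopoietin-like genes and genes of the lipoprotein lipase system, 1 was higher in BAT than in eWAT (2.71% of all tested genes) and 1 lower (3.75%). The other contrasts had 0 by edgeR (2 and 0 at an unadjusted p below 0.05), and DESeq2 called 1 and 0. Angptl1 averaged 7.39 ± 1.80 CPM in BAT cultures, 1.15 ± 0.0192 in those of eWAT and 1.36 ± 0.216 in those of iWAT. BAT minus eWAT was 2.67 ± 0.47 (edgeR adjusted p = 0.0340). The gene had only 5 and 4 reads in eWAT libraries and 5 and 6 in iWAT libraries, so the small SDs there say little about its precision. Gm6484, named Angptl8 in RefSeq, averaged 7.48 ± 1.38, 28.3 ± 8.69 and 21.0 ± 1.53 CPM, with BAT minus eWAT at -1.89 ± 0.32 (adjusted p = 0.0313). Neither call held with any library left out, where adjusted p ran from 0.0747 to 0.180 for Angptl1 and from 0.0505 to 0.130 for Gm6484. Lmf1, needed to mature the lipase, averaged 30.7 ± 6.34, 22.5 ± 0.0903 and 30.0 ± 6.67 CPM and did not pass.

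A list of other PPAR targets had 6 of 22 genes higher in BAT than in eWAT and 0 lower, with a median log2 difference of 0.04. Of all tested genes, 2.71% were higher and 3.75% lower. DESeq2 called 7 of the 22 higher and 1 lower. Pdk4, which slows glucose oxidation, averaged 894 ± 89.0 CPM in BAT cultures, 170.3 ± 38.5 in those of eWAT and 290.2 ± 128 in those of iWAT (BAT minus eWAT 2.39 ± 0.35, edgeR adjusted p = 0.0260). Pck1, of glycerol synthesis, averaged 349.9 ± 43.8, 83.0 ± 26.0 and 99.2 ± 22.3 CPM (2.07 ± 0.29, adjusted p = 0.0231). Plin5, a lipid droplet protein gene of oxidative cells, averaged 260.2 ± 41.3, 109.8 ± 3.14 and 177 ± 7.43 CPM (1.24 ± 0.18, adjusted p = 0.0247). Angptl4 itself was not higher in BAT. In BAT minus iWAT 0 of 22 passed by edgeR (8 at an unadjusted p below 0.05), while DESeq2 called 3 higher and 1 lower. In iWAT minus eWAT 0 passed (2 at an unadjusted p below 0.05, 0 by DESeq2). With 1 library left out, the count in BAT minus eWAT was 6 without BAT replicate 1, 2 without either iWAT library, and 0 without BAT replicate 2 or either eWAT library.

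Thbs1 differed more between the 2 libraries of a depot than between depots. It stood at 2407 and 443 CPM in BAT, at 1556 and 419.5 in eWAT libraries and at 2062 and 306 in iWAT libraries. In each depot replicate 1 was the higher, by 5.44 times in BAT, 3.71 in eWAT and 6.75 in iWAT, and the depots overlapped. Averaged over depots, its log2 difference between replicates 1 and 2 ranked at position 39 among 11732 tested genes. The depot differences had large errors: 0.53 ± 1.12 for BAT against eWAT (edgeR adjusted p = 0.807), 0.27 ± 1.12 against iWAT (0.937) and 0.26 ± 1.12 between iWAT and eWAT (0.996). Their sign changed with the library left out. Leaving out a library also unbalances the replicate numbers between depots, so these fits cannot give an order of the depots. BAT minus eWAT was -1.15 without BAT replicate 1 and -0.12 without eWAT replicate 2. BAT minus iWAT was -1.42 without BAT replicate 1 and -0.53 without iWAT replicate 2. For iWAT minus eWAT it was -0.39 without eWAT replicate 2 and -1.70 without iWAT replicate 1. Thbs1 (NM_011580) lies on mm9 chromosome 2 from 117937657 to 117952869, plus strand.

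Of the other members, Vegfc was higher in replicate 1 in each depot and Vegfa and Angptl2 were lower, so 2 of the 10 genes were higher and 2 lower in replicate 1 throughout. Among all 11732 tested genes, 2747 were higher and 2966 lower in replicate 1 in all 3 depots. The summed pericyte and smooth muscle markers were also higher in replicate 1, with 2136 CPM against 436 for BAT, 1598 against 886 for eWAT and 1252 against 615 for iWAT. The largest in this sum in BAT were Acta2 and Tagln, averaging 489 and 406 CPM, while Rgs5 averaged 5.54. The summed macrophage markers were higher in replicate 1 as well. The part of these markers in the Thbs1 values was not tested. The ratio of Thbs1 to Vegfa per kb was 3.78 and 0.455 in BAT, against 6.19 and 1.11 in eWAT libraries and 3.85 and 0.530 in iWAT libraries.

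**Figure D4:**
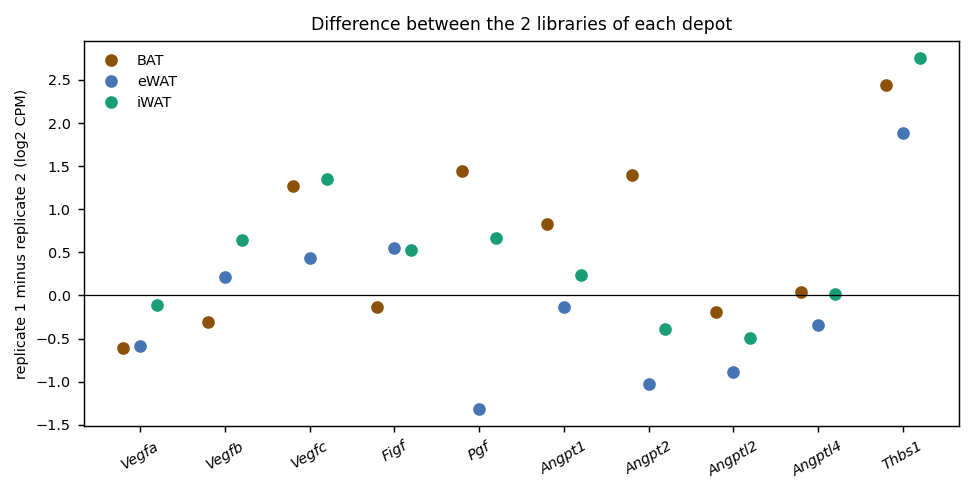
Replicate 1 minus replicate 2 in log2 CPM (y axis) for each gene (x axis), a point per depot. Thbs1 lies at 2.44, 1.89 and 2.75 in BAT, eWAT and iWAT.

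Of 5 tested genes among the other thrombospondins and thrombospondin receptors, 0 passed by edgeR in each contrast (1, 2 and 1 at an unadjusted p below 0.05). DESeq2 called 1 lower in BAT against each white depot. Thbs2, a related inhibitor of vessel growth, stood at 658 and 409.5 CPM in BAT, at 793 and 138 in eWAT libraries and at 2966 and 1417 in iWAT libraries. Both iWAT libraries were above the rest, with iWAT minus eWAT at 2.23 ± 0.81 (adjusted p = 0.433). Lrp1, a scavenger receptor gene that binds thrombospondins, averaged 99.0 ± 19.4 CPM in BAT cultures, 725 ± 533 in those of eWAT and 589 ± 432 in those of iWAT (BAT minus eWAT -2.87 ± 0.72, adjusted p = 0.0685). Thbs3 averaged 5.99 ± 1.99, 8.87 ± 1.29 and 12.0 ± 5.54 CPM.

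Few other secreted factors that act on vessels passed. Of 22 tested angiogenic factor genes outside the 10, 0 were higher in BAT than in eWAT and 2 lower. Of all tested genes, 2.71% were higher and 3.75% lower. Against iWAT 0 were higher in BAT and 1 lower (0.145% and 0.895% of all tested genes). In iWAT against eWAT 0 passed by edgeR (2 at an unadjusted p below 0.05, 0 by DESeq2). Fgf10, a growth factor gene of adipose stroma, averaged 19.9 ± 1.57 CPM in BAT cultures, 67.5 ± 21.5 in those of eWAT and 61.0 ± 3.99 in those of iWAT, and fell by 1.77 against eWAT (SE 0.26, adjusted p = 0.0260). Cxcl12, a chemokine gene of stromal cells, averaged 39.3 ± 13.4, 118 ± 22.6 and 133 ± 5.23 CPM, and fell by 1.57 (SE 0.27, adjusted p = 0.0340). Angpt4, an angiopoietin gene outside the 10, averaged 2.76 ± 1.51, 9.30 ± 4.31 and 29.0 ± 1.88 CPM, with BAT minus iWAT at -3.48 ± 0.50 (adjusted p = 0.0422). Fgf10 was called only without eWAT replicate 2 and Cxcl12 only without BAT replicate 1 among the 6 fits that left out a library, with adjusted p up to 0.108 and 0.113 in the others. Angpt4 was called without either eWAT library and had an adjusted p up to 0.200 without one of the other libraries. Fgf10 and Cxcl12 were low in the same depot as the summed preadipocyte and fibroblast markers, whose part was not tested.

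Among 13 tested inhibitors of vessel growth outside the 10, 0 were higher in BAT than in eWAT (2.71% of all tested genes) and 1 lower (3.75%). That gene was Timp2, an inhibitor of matrix proteases, at 99.6 ± 33.7 CPM in BAT cultures, 399.5 ± 44.5 in those of eWAT and 262 ± 17.0 in those of iWAT (BAT minus eWAT -2.00 ± 0.27, edgeR adjusted p = 0.0217). Timp2 was called without BAT replicate 1 and without iWAT replicate 1, and its adjusted p was up to 0.0856 without one of the others. Macrophage markers (median log2 difference -3.61) and preadipocyte and fibroblast markers (-1.85) were also lower in BAT than in eWAT, and their part in the Timp2 values was not tested. In the other contrasts 0 passed (6 and 2 at an unadjusted p below 0.05), and DESeq2 called 2 lower in BAT than in iWAT. Adamts1, a protease gene with antiangiogenic activity, averaged 143 ± 73.1, 309 ± 92.4 and 393 ± 78.3 CPM, and Ism1, which encodes isthmin, 18.8 ± 2.08, 27.1 ± 7.97 and 12.6 ± 2.83 CPM. The list's median was -0.53, -1.01 and 0.23 in BAT minus eWAT, BAT minus iWAT and iWAT minus eWAT.

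Genes that sense oxygen or respond to its lack were examined because Vegfa is among their targets. Of 9 tested oxygen sensing regulators, 2 were higher in BAT than in eWAT (2.71% of all tested genes) and 1 lower (3.75%). The prolyl hydroxylase genes Egln1 and Egln3, whose enzymes mark hypoxia-inducible factors for breakdown, averaged 153 ± 27.5 and 85.5 ± 3.07 CPM in BAT against 61.4 ± 9.72 and 27.1 ± 9.97 in eWAT. Their differences were 1.32 ± 0.26 (edgeR adjusted p = 0.0406) and 1.66 ± 0.36 (adjusted p = 0.0487). Arnt2, a partner of those factors, averaged 1.74 ± 0.833 CPM in BAT against 13.2 ± 1.77 in eWAT (-2.83 ± 0.44, adjusted p = 0.0286). Against iWAT and between the white depots 0 passed by edgeR (1 and 3 at an unadjusted p below 0.05, 0 by DESeq2). Egln1 and Arnt2 were called only without BAT replicate 1 among the fits that left out a library, and Egln3 in none of them (adjusted p from 0.0621 to 0.208).

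Of 19 tested hypoxia-inducible target genes, which do not include the members, 5 were higher in BAT than in eWAT and 0 lower. Of all tested genes, 2.71% were higher and 3.75% lower. DESeq2 called 8 of the 19 higher and 0 lower. The list's median log2 difference was 0.95, against 1.36 for Vegfa and -0.03 for all genes. Bnip3, of mitochondrial turnover, averaged 446 ± 112 CPM in BAT cultures, 138 ± 43.7 in those of eWAT and 223 ± 60.8 in those of iWAT (BAT minus eWAT 1.69 ± 0.33, edgeR adjusted p = 0.0402). Pdk1, which slows pyruvate oxidation, averaged 429 ± 99.6, 149 ± 51.8 and 310.4 ± 24.7 CPM (1.52 ± 0.30, adjusted p = 0.0403). The glycolytic gene Pgk1 averaged 53.1 ± 6.61, 16.6 ± 2.69 and 36.7 ± 1.49 CPM (1.68 ± 0.21, adjusted p = 0.0209). The glucose transporter gene Slc2a1, named after its value was seen, had a difference of -0.11 ± 0.28 (adjusted p = 0.849). In BAT minus iWAT the list's median was 0.08 and 0 passed by edgeR (5 at an unadjusted p below 0.05, 0 by DESeq2). In iWAT minus eWAT the median was 0.78, 0 passed by edgeR (11 at an unadjusted p below 0.05) and DESeq2 called 3 higher. With 1 library left out, the count in BAT minus eWAT was 6 without BAT replicate 1, 1 without iWAT replicate 1, and 0 without BAT replicate 2, iWAT replicate 2 or either eWAT library.

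**Figure D5:**
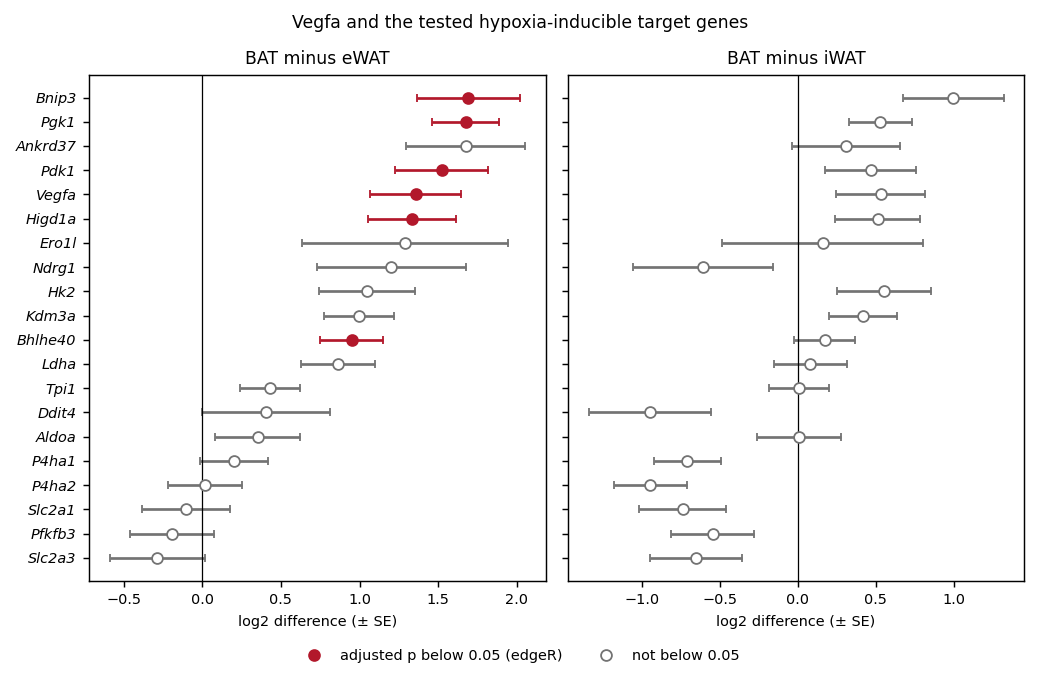
Log2 differences (x axis, bars are ± SE) of Vegfa and the 19 tested hypoxia-inducible target genes (rows) in BAT minus eWAT and BAT minus iWAT. Filled red points passed the edgeR test; in BAT minus eWAT these are Vegfa and 5 targets, and in BAT minus iWAT none did.

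Among 10364 genes with a mean of at least 5 CPM, the pair with the library profile most like Vegfa was Vldlr, a lipoprotein receptor gene (Pearson r of log2 CPM 0.9996 over 6 libraries), and the hypoxia target Higd1a (0.998). Vldlr stood at 374 and 605 CPM in BAT, at 121 and 199 in eWAT libraries and at 292 and 332 in iWAT libraries. Per kb it was below Vegfa in each library, at 45.4 against 109.7 in BAT replicate 1 and 14.7 against 43.3 in eWAT replicate 1. Closest to Figf were the kinase gene Mast4 (0.996) and Atp5g1, of ATP synthase (0.995). Atp5g1 had few reads, from 11 to 30 per library (4.02 to 6.99 CPM). Mast4 spanned a far smaller range than Figf, with 11.6 and 11.5 CPM in BAT, against 25.4 and 22.5 in eWAT libraries and 23.8 and 18.9 in iWAT libraries. With 6 libraries of 3 depots these values describe a shared ordering of libraries only.

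The authors' deposited table of their own tests called more of the 10 genes at an adjusted p below 0.05: 4 in BAT against eWAT, 4 in BAT against iWAT and 5 in iWAT against eWAT. In the authors' deposited table the genes called for BAT minus eWAT were Vegfa (log2 fold change 1.35), Figf (-2.57), Pgf (1.69) and Angptl2 (-0.74). For BAT minus iWAT the authors' deposited table called Figf (-2.17), Angptl2 (-1.50), Angpt1 (-1.25) and Vegfc (-1.0). For iWAT minus eWAT the authors' deposited table called Vegfa (0.84), Pgf (1.74), Angpt1 (1.00), Angptl2 (0.70) and Figf (-0.45). The sign differed from the edgeR fit for 2 of the 10 genes in BAT minus iWAT and 1 in iWAT minus eWAT, all with no call in either, and the largest gap was 0.29. Neither source called Vegfb, Angpt2, Angptl4 or Thbs1 in any contrast.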

How the data were processed

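RNA of cultured cells (6 libraries, 2 per depot) was depleted of ribosomal RNA and sequenced, and reads were aligned with STAR to mm9, per the submitters' processing notes. Not given in the sources used here are the STAR version, the counting program, its strand setting and its handling of multi-mapping reads. The table deposited by the authors holds raw read counts per RefSeq gene, without normalization per the file headers. A second table deposited by the authors holds log2 fold changes, p-values and a likelihood ratio score for each pair of depots; its tool is not stated, and it was used for comparison only.

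Genes were filtered with filterByExpr (11732 of 20295 kept), scaled with trimmed-mean factors and tested by a two-sided quasi-likelihood test in edgeR (1 fit to the 6 libraries, depot as the only term), with Benjamini-Hochberg adjustment over all tested genes. Standard errors are the absolute log2 difference divided by the square root of F. Libraries of a depot differed far beyond counting noise (chi-square over its degrees of freedom 19.8, 18.4 and 16.0 for BAT, eWAT and iWAT over genes in the table with at least 10 counts). A limit of 3 counts equalled from 0.634 to 1.15 CPM. CPM per kb uses the count table's counted length.

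The members and lists were chosen with earlier results of these data known. All 10 members are named, up to 3 genes per pathway list by smallest p over the contrasts, and the 2 genes most like each called member. Alternatives were other scalings, filters and tools, a replicate term, only 2 depots and leaving out each library. Sequences come from RefSeq tables on GRCm38.p6 and no coordinate was moved between builds. Software was R 4.3.3, edgeR 4.0.16, limma 3.58.1, DESeq2 1.42.0, Python 3.11.15 and matplotlib 3.10.9.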

Additional observations from a re-analysis of the deposited data

How the results depend on the processing

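Of all tested genes, 758 passed in BAT minus eWAT, 122 in BAT minus iWAT and 0 in iWAT minus eWAT. With no filter on low counts the counts were 1937, 780 and 557, and with DESeq2 1370, 510 and 301. With limma voom 69 passed in BAT minus iWAT and 1 in iWAT minus eWAT. With only the depots compared in the fit, 156 passed in BAT minus eWAT and 2 in iWAT minus eWAT. With 1 library left out, counts ran from 17 to 829, from 0 to 94 and from 0 to 3 in that order. Of the 10 genes, 2, 1 and 0 passed in these contrasts. In BAT minus eWAT 1 passed with library totals, 4 with no filter and 1 with only the depots compared, and from 0 to 2 with 1 library left out. In BAT minus iWAT 3 passed with no filter, 2 with DESeq2 and 0 with limma voom, and from 0 to 1 with 1 library left out. With the replicate number as a block, 2780, 1225 and 563 of all genes passed, and 3 of the 10 in BAT minus iWAT and 1 in iWAT minus eWAT. The block added calls for Angptl2 against both eWAT (edgeR adjusted p = 0.0266) and iWAT (0.00563), for Angpt1 in BAT minus iWAT (0.0355) and for Vegfa in iWAT minus eWAT (0.0347). It took the standard error of Thbs1 in BAT minus eWAT from 1.12 to 0.22, with no call (0.312). The labels do not say what a number marks. Replicate 1 minus 2 differences correlated across genes at 0.412 (BAT and eWAT), 0.448 (BAT and iWAT) and 0.556 (eWAT and iWAT).

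Only differences that had not passed changed sign. With library totals Pgf in BAT minus iWAT was -0.022. Thbs1 in iWAT minus eWAT was -0.015 with limma voom and -0.025 with the replicate block. With 1 library left out, BAT minus eWAT ran from -0.69 to 0.16 for Angpt1, from -0.19 to 1.30 for Angpt2 and from -1.15 to 1.77 for Thbs1. BAT minus iWAT ran from -0.95 to 0.57 for Pgf, from -0.73 to 0.69 for Angpt2 and from -1.42 to 2.23 for Thbs1. In iWAT minus eWAT the range was -0.39 to 0.29 for Vegfb, -0.62 to 0.80 for Vegfc, -0.0075 to 0.34 for Angptl4 and -1.70 to 1.5 for Thbs1. The cause was not tested.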
